A study of Mus musculus with 4 samples.

Results

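The C-type lectin receptor genes of the CD94 and NKG2 family and their nearest relatives were examined: Klrd1, Klrc1, Klrc2, Klrc3, Klrk1, Klre1, Klri1 and Klri2. They were taken by name, as the Klrc, Klrd, Klre, Klri and Klrk genes of the natural killer gene complex on mouse chromosome 6, and make up 8 of the 53715 genes in the count table. These genes and the gene lists below were chosen with earlier results of these data known. All 8 passed the filter on low counts, as did 14185 genes in all. The RNA came from iNKT cells (invariant natural killer T cells) of the thymus, which recognise lipids presented by CD1d and were sorted as 7AAD-negative, CD1d tetramer-positive and TCRβ-positive. Smart-seq2, which copies whole transcripts and keeps no record of the strand, was used for the libraries. Mettl3KO mice were Mettl3fl/flCD4-cre and WT mice are given only as wild type, and each genotype has 2 libraries. Both were C57BL/6 mice of 6 to 8 weeks. In the Mettl3KO mice Cre is driven by Cd4 sequences, which act in developing T cells generally and not in iNKT cells alone. METTL3 is the catalytic subunit of the enzyme that writes N6-methyladenosine on RNA, and the study asks about its part in iNKT cell development. Nothing in the labels ties a library to its own animal, and the p-values below therefore describe variation among these libraries, which could be technical.

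CD94, the product of Klrd1, reaches the cell surface as a disulfide-linked partner of an NKG2 chain. With NKG2A (Klrc1) it forms an inhibitory receptor that signals through immunoreceptor tyrosine-based inhibitory motifs, and with NKG2C (Klrc2) or NKG2E (Klrc3) an activating receptor that depends on the adaptor DAP12. Both kinds bind the nonclassical MHC molecule Qa-1b. NKG2D (Klrk1) does not pair with CD94. It forms homodimers that signal through DAP10 or DAP12 and recognise stress-induced MHC-like ligands. KLRE1 pairs with KLRI1 in an inhibitory receptor and with KLRI2 in an activating receptor. These receptors are known from natural killer cells and from the interferon-γ-producing NKT1 subset of iNKT cells.

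The 5′ ends of the coding sequences show how the inhibitory and activating chains differ. Each stretch is read 5′ to 3′ on the minus strand of GRCm38 from the longest GENCODE coding transcript, and the codons of an inhibitory motif are in capitals. The NKG2 chains are shown from the start codon, over chr6:129678851-129678910 for Klrc1, chr6:129660497-129660556 for Klrc2 and chr6:129643229-129643288 for Klrc3.
Klrc1: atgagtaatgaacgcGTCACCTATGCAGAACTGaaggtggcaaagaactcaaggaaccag
Klrc2: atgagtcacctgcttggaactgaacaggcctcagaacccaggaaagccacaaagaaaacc
Klrc3: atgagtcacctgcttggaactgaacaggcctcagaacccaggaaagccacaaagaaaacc
The KLRI chains are shown from coding base 31 to 160, over chr6:129716963-129717092 for Klri1 and chr6:129740259-129740388 for Klri2.
Klri1: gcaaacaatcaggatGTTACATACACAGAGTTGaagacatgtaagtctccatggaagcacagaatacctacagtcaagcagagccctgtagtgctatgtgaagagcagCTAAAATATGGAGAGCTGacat
Klri2: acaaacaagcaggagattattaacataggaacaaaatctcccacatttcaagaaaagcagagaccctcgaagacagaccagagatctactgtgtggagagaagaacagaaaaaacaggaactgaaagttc
Within the first 90 codons the search found 1 inhibitory motif in Klrc1 and 2 in Klri1, and 0 in each of the other 6 genes. The first 60 coding bases of Klrc2 and Klrc3 are the same letters, and their whole coding sequences are 95.3% identical over the aligned bases. Klrc1 shares 83.1% with Klrc2 and 85.6% with Klrc3, Klri1 shares 79.9% with Klri2, and no other pair exceeds 67.0%. These copies bear on how reads can be assigned. Of the 50-base words in annotated exons, 38.6% of those of Klrc1, 16.3% of those of Klrc2 and 36.3% of those of Klrc3 also occur in another gene, against 5.83% for Klri1, 2.77% for Klri2 and 0.308% for Klre1, and none for Klrd1 and Klrk1. Values for single Klrc and Klri genes are uncertain to that extent. How the submitters counted reads that match several genes is not given. Sums of the counts are given beside the single values, and they cannot restore reads that were not counted.

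Klrc2 and Klrc3 also have nearly the same letters around the gene start. The RefSeq promoter windows (GRCm38.p6, minus strand, 250 bases before to 50 after the annotated start) lie at chr6:129660507-129660806 for Klrc2 and chr6:129643239-129643538 for Klrc3. Capitals mark where they differ, at 3 substituted bases and 2 gap bases.
Klrc2: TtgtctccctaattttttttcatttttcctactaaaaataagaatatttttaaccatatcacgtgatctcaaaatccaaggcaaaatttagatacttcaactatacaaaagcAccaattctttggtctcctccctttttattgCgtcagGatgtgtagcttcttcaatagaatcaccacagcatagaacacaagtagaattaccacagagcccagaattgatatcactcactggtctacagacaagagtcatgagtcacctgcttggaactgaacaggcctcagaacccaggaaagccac
Klrc3: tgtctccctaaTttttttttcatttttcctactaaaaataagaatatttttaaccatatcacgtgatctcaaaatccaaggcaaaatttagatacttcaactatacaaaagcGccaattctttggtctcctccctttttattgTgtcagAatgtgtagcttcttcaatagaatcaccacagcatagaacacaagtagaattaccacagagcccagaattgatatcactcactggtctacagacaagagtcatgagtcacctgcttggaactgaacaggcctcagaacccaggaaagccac
The Klrk1 window, at chr6:129623815-129624114 on the minus strand, is shown for comparison, with a RUNX core and an AP-1 match in capitals.
Klrk1: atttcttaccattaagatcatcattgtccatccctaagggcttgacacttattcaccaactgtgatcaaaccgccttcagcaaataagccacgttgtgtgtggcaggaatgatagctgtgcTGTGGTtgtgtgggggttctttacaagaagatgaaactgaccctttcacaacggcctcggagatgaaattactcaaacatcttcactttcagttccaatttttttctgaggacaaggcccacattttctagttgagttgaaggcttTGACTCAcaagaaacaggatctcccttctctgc
Windows were found for 6 of the 8 genes, with 2 annotated starts each for Klrc2 and Klre1, and were not found for Klrd1 and Klri2. Both strands of each were searched for 7 motifs. The RUNX core TGTGGT stood in the windows of 5 genes, Klrc1, Klrc2, Klrc3, Klrk1 and Klre1, and in 16.8% of all 32851 promoter windows. In the printed windows of Klrc2 and Klrc3 it was read on the opposite strand, as accaca, at positions -76 and -49 from the start. That start is the first base of the start codon in both genes. From the other annotated start of Klrc2 the same matches lie at -36 and -9. In Klrk1 the match lies at -129. The AP-1 motif TGANTCA occurred in Klrc2, Klrc3 and Klrk1 (7.81% of all windows), and in the first 2 it overlaps the start codon. The E-box CACGTG occurred in Klrc2 and Klrc3 (7.15%). The T-box core GGTGTGA was in none of these windows and in 3.98% of all windows. The same held for the cyclic AMP response element TGACGTCA (1.79%), for AGATAA, a motif of GATA factors (11.2%), and for the ETS motif CCGGAAG (8.86%). The matches describe letters only, and no binding was measured.

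All 8 genes were lower in both Mettl3KO libraries than in both WT libraries, and 6 of them passed the test. Over all genes tested, 24.9% had both Mettl3KO libraries below both WT libraries. The share called lower was 1.51%, or 214 genes, and 1.09% were called higher (edgeR quasi-likelihood test, Benjamini-Hochberg adjusted p under 0.05). The median log2 fold change was -3.57 over the 8 genes and 0.0163 over all tested genes. Counts of the 8 genes together made up 0.0189% and 0.0178% of the Mettl3KO libraries, against 0.138% and 0.192% of the WT libraries. Fewer genes were called lower over the whole table when any 1 library was left out, which leaves a genotype with a single library. The cause of that drop was not tested. The same 6 receptor genes were called in each of those fits. In bulk RNA, fewer cells that express these genes and less of the RNA per cell cannot be told apart.

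**Figure D1:**
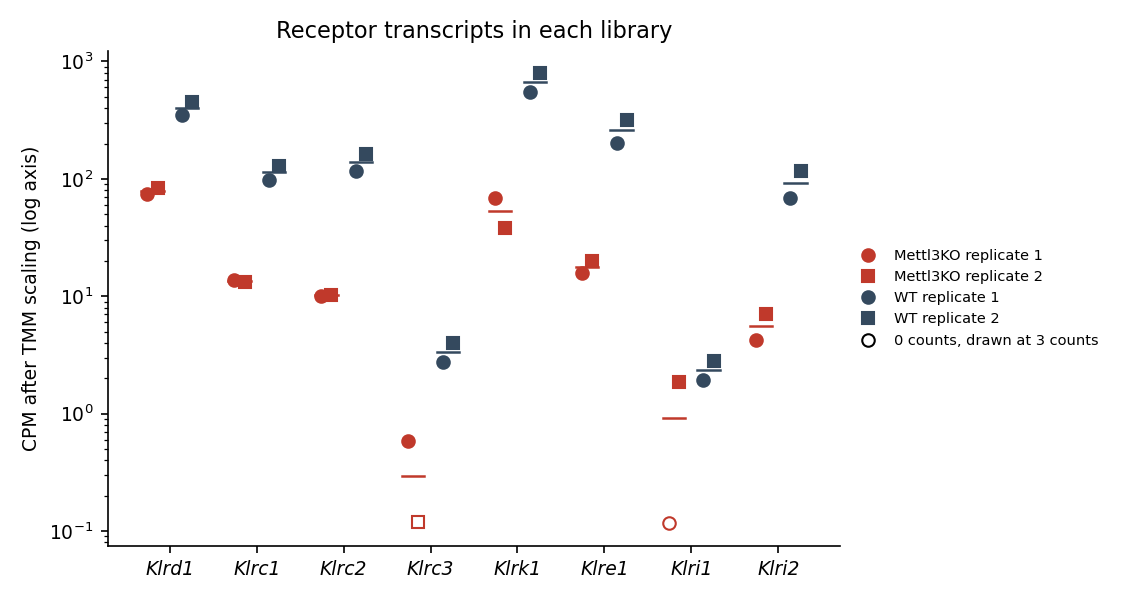
Level of each receptor gene in each library, in CPM after TMM scaling on a log axis, with Mettl3KO left of WT and a short line at each genotype's mean. For all 8 genes the Mettl3KO points lie below the WT points, with Klrd1 at 74.2 and 83.6 CPM in Mettl3KO and 348.3 and 454.3 CPM in WT, and the open symbols are libraries with 0 counts.

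Klrd1 (ENSMUSG00000030165.16; GRCm38 chromosome 6, 129591782 to 129598775, plus strand), the shared partner chain, was at 74.2 and 83.6 CPM (counts divided by the TMM-scaled library size, on the usual CPM scale) in Mettl3KO libraries and at 348.3 and 454.3 CPM in WT libraries. The groups did not overlap, and the lower WT library stood well above both Mettl3KO libraries. The log2 fold change was -2.35 (SE 0.17, 95% interval -2.73 to -1.96), or 5.08-fold lower in Mettl3KO (edgeR adjusted p = 0.00214). Among the 6 called receptor genes this was the smallest change, and Klrd1 had the most counts of the 8 in both Mettl3KO libraries.

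Klrc1 (ENSMUSG00000030167.15; chromosome 6, 129666015 to 129678973, minus strand), the inhibitory NKG2A chain, was at 13.8 and 13.2 CPM in Mettl3KO libraries and at 98.7 and 128.5 CPM in WT libraries. The Mettl3KO libraries were close to each other and far below WT. It was 8.38-fold lower in Mettl3KO, with a log2 fold change of -3.07 (SE 0.23, 95% interval -3.61 to -2.52; edgeR adjusted p = 0.00217).

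Klrc2 (ENSMUSG00000052736.15; chromosome 6, 129647496 to 129660689, minus strand), the activating NKG2C chain, was at 9.99 and 10.3 CPM in Mettl3KO libraries and at 116.9 and 161.9 CPM in WT libraries. Both Mettl3KO libraries lay far below both WT libraries. The log2 fold change was -3.78 (SE 0.26, 95% interval -4.39 to -3.17), 13.7-fold lower in Mettl3KO (edgeR adjusted p = 0.00214). Klrc3 (ENSMUSG00000033027.15; chromosome 6, 129639064 to 129643337, minus strand), the NKG2E chain, was near the detection limit in Mettl3KO, with 15 and 0 counts there and 78 and 100 counts in WT, or 0.583 and 0 CPM against 2.77 and 3.98 CPM. A count of 0 in Mettl3KO replicate 2 allows up to 0.120 CPM. Its log2 fold change of -3.48 (SE 1.06, 95% interval -5.89 to -1.07) did not pass the test over all genes (edgeR adjusted p = 0.119). With the reads of Klrc1, Klrc2 and Klrc3 summed as 1 feature, the level was 24.3 and 23.5 CPM in Mettl3KO and 218.0 and 295.9 CPM in WT, and the log2 fold change -3.42 with an SE of 0.21 (edgeR adjusted p = 0.00238).

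Klrk1 (ENSMUSG00000030149.15; chromosome 6, 129610323 to 129623864, minus strand), which encodes NKG2D, was the most counted of the 8 genes in WT, at 68.3 and 37.9 CPM in Mettl3KO libraries and at 552.6 and 793.5 CPM in WT libraries. The Mettl3KO libraries differed more from each other here than for Klrd1, Klrc1 or Klrc2, while both stayed far below WT. Klrk1 was 12.6-fold lower in Mettl3KO, with a log2 fold change of -3.66 (SE 0.28, 95% interval -4.31 to -3.01; edgeR adjusted p = 0.00217).

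Klre1 (ENSMUSG00000050241.8; chromosome 6, 129577905 to 129585827, plus strand), the partner chain of the KLRI receptors, was at 15.7 and 19.9 CPM in Mettl3KO libraries and at 203.3 and 318.6 CPM in WT libraries. The groups were again apart. Klre1 was 14.6-fold lower in Mettl3KO (log2 fold change -3.87, SE 0.28, 95% interval -4.53 to -3.21; edgeR adjusted p = 0.00214). Klri2 (ENSMUSG00000043932.5; chromosome 6, 129729041 to 129740484, minus strand), its activating partner, had the largest fold change of the 8 genes, with 4.24 and 7.02 CPM in Mettl3KO libraries and 68.3 and 116.5 CPM in WT libraries. Its log2 fold change reached -4.03 (SE 0.41, 95% interval -4.98 to -3.08; edgeR adjusted p = 0.00558).

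Klri1 (ENSMUSG00000067610.1; chromosome 6, 129697218 to 129717132, minus strand), the inhibitory partner of KLRE1, was scarce in all libraries. It had 0 and 46 counts in Mettl3KO and 54 and 70 counts in WT, or 0 and 1.85 CPM against 1.92 and 2.79 CPM, and the 0 counts of Mettl3KO replicate 1 allow up to 0.117 CPM. Mettl3KO replicate 2 lay just below the lower WT library. The log2 fold change of -1.35 (SE 1.02, 95% interval -3.74 to 1.03) did not pass (edgeR adjusted p = 0.518). Summed, Klri1 and Klri2 reads stood at 4.23 and 8.85 CPM in Mettl3KO and 70.0 and 119.9 CPM in WT, and the log2 fold change was -3.86 with an SE of 0.42 (edgeR adjusted p = 0.00748).

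**Figure D2:**
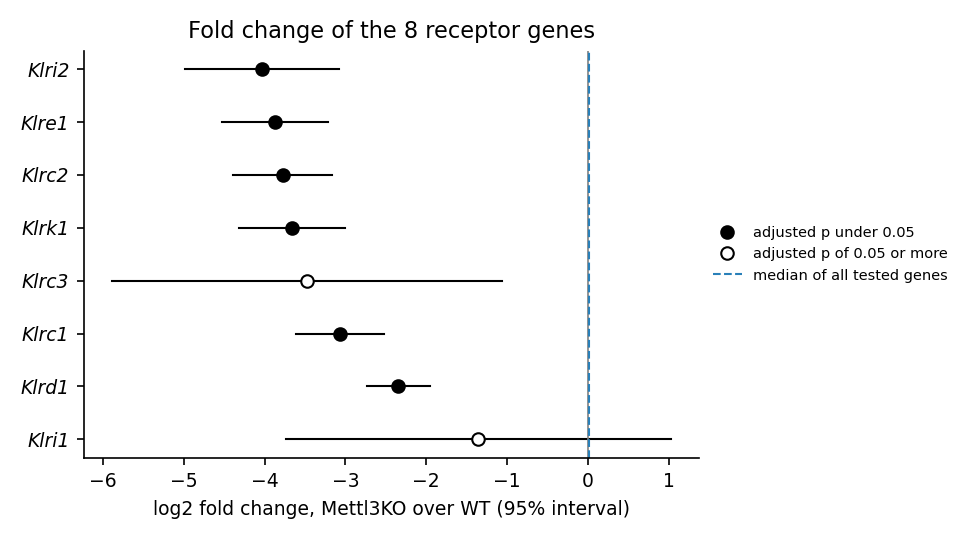
Log2 fold change of each receptor gene, Mettl3KO over WT, with its 95% interval; filled circles have an adjusted p under 0.05 and the dashed line is the median of all tested genes. The 6 called genes lie between -4.03 and -2.35, and the interval of Klri1, from -3.74 to 1.03, crosses 0.

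Levels of different genes were compared per kilobase of annotated exon, as mean ± SD of the 2 libraries. In Mettl3KO the order began with Klrd1 at 61.6 ± 5.20 CPM per kb, followed by Klrk1 at 7.39 ± 2.99, Klrc1 at 6.81 ± 0.198 and Klre1 at 5.09 ± 0.866 CPM per kb. Below these came Klrc2 at 1.75 ± 0.0393, Klri2 at 1.44 ± 0.503, Klri1 at 1.10 ± 1.56 and Klrc3 at 0.396 ± 0.560 CPM per kb. Klrd1 stood clear of the rest, and the library ranges of Klrk1 overlapped those of Klrc1 and Klre1, as did those of Klrc2 and Klri2, while the range of Klri1, 0 to 2.20, spanned those of Klri2, Klrc2 and Klrc3, so that the order of the lowest genes is not resolved. In WT, Klrd1 was at 313.2 ± 58.5 CPM per kb, Klrk1 at 93.7 ± 23.7, Klre1 at 74.7 ± 23.3 and Klrc1 at 57.2 ± 10.6 CPM per kb. Klrc2 was at 23.98 ± 5.48, Klri2 at 23.6 ± 8.72, Klrc3 at 4.59 ± 1.16 and Klri1 at 2.81 ± 0.730 CPM per kb. Here too Klrd1 was above all others, while Klrk1 overlapped Klre1, Klre1 overlapped Klrc1, and Klrc2 overlapped Klri2. Klrc2 and Klrc3, whose promoter windows are nearly the same, differed in level in both genotypes, within the limits of assigning their shared reads. With the longest coding transcript as the length, a choice made after seeing the data, Klre1 stood at 13.8 ± 2.34 CPM per kb in Mettl3KO and above Klrc1 at 6.81 ± 0.198, while the order in WT was the same. With that length Klrk1, at 21.4 and 11.8 CPM per kb in Mettl3KO, overlapped Klre1 but not Klrc1, and Klrc2, at 3.55 and 3.67 CPM per kb, no longer overlapped Klri2 or Klri1. In WT it set Klre1 apart from Klrc1 and Klrc2 apart from Klri2. It also made Klrc2, at 41.6 and 57.6 CPM per kb, overlap Klrc1, at 49.7 and 64.7. By exon length these 2 genes did not overlap in WT.

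The mixture of chains was compared within each library, where scaling plays no part. NKG2A took a larger part of the NKG2 reads in both Mettl3KO libraries than in both WT libraries. The permutation test used for it cannot pass with 2 against 2 libraries. Klrc1 made up 56.6% (95% exact binomial interval 52.6 to 60.5) and 56.2% (52.1 to 60.3) of Klrc1, Klrc2 and Klrc3 counts in Mettl3KO libraries, against 45.2% (44.0 to 46.5) and 43.6% (42.5 to 44.8) in WT libraries. Intervals cover counting error only, since these reads carry no molecular identifiers. The mean difference was 12.0 percentage points, and an exact two-sided permutation test gave p = 0.33, the smallest value that 2 against 2 libraries allow. Per Klrd1 count there were 0.328 and 0.282 counts of the 3 Klrc genes in Mettl3KO, against 0.627 and 0.648 in WT. Per Klrc1 count there were 0.724 and 0.779 Klrc2 counts in Mettl3KO, against 1.184 and 1.260 in WT.

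NKG2D reads were fewer per CD94 read in both Mettl3KO libraries than in both WT libraries. The Klrk1 to Klrd1 ratio was 0.920 and 0.453 in Mettl3KO and 1.59 and 1.75 in WT, a difference of -0.980 (exact two-sided permutation p = 0.33, again the smallest possible). The Mettl3KO libraries lay further apart than the WT pair. Klrd1 accounted for 39.7% and 48.1% of the counts of the 8 genes in Mettl3KO, against 25.0% and 22.9% in WT, and Klrk1 for 36.6% and 21.8% against 39.7% and 40.1%. The Klri pair gave no stable share: Klri1 made up 0% and 20.8% of Klri1 and Klri2 counts in Mettl3KO and 2.74% and 2.34% in WT (difference 7.87 percentage points, exact two-sided permutation p = 1). The 2 Mettl3KO libraries lay on either side of WT, and without Mettl3KO replicate 2 the difference was -2.54. Klre1 counts per Klri1 and Klri2 count were 3.70 and 2.25 in Mettl3KO and 2.90 and 2.67 in WT, which overlap.

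**Figure D3:**
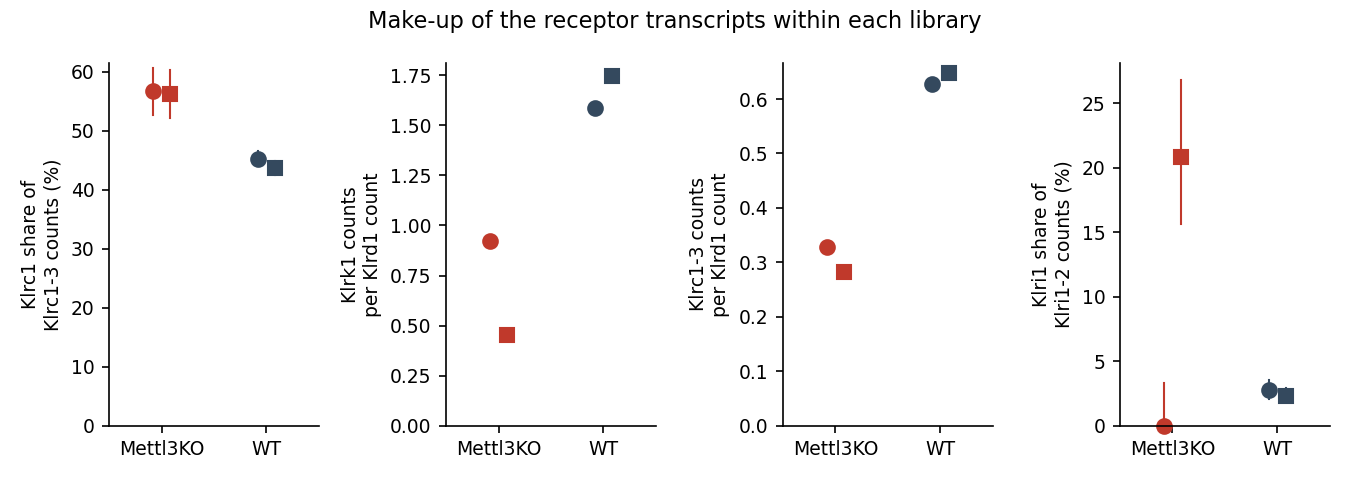
Make-up of the receptor reads in each library, Mettl3KO left and WT right, circles for replicate 1 and squares for replicate 2, with 95% exact binomial intervals on the shares. The Klrc1 share is 56.6% and 56.2% in Mettl3KO and 45.2% and 43.6% in WT, the Klrk1 to Klrd1 ratio and the Klrc1, Klrc2 and Klrc3 counts per Klrd1 count are lower in Mettl3KO, and the Klri1 share straddles WT.

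The 8 genes lie side by side within 162.6 kb. The annotation places 3 other genes between them, Gm7309, Mir680-1 and Gm44135, and none that overlaps a member. Gm7309 and Mir680-1 had no counts, and Gm44135 had 0 and 19 counts in Mettl3KO and 3 and 13 in WT, with overlapping groups. Of 31 other tested genes in the cluster and within 1000 kb on either side, 7 were called lower and 1 higher, with a median log2 fold change of -0.77. The gene called higher was Clec7a, which encodes the β-glucan receptor dectin-1, at 5.83 and 6.46 CPM in Mettl3KO and 0.569 and 0.0398 CPM in WT (log2 fold change 4.25, edgeR adjusted p = 0.0410). Its call was lost when any 1 of the 4 libraries was left out, with no filter and with limma voom (adjusted p up to 0.197), and leaving out WT replicate 1 moved its log2 fold change to 7.09. Other lectin genes were also listed, the Ly49, NKR-P1 and Clec2 families among them, with a median log2 fold change of -1.01. By edgeR 7 of 18 tested were called lower and 0 higher (1.51% and 1.09% over all genes). At an unadjusted p under 0.05, 12 were lower and 2 higher, where 9.69% of all tested genes were lower and 10.5% higher. The 2 higher were Klra17, with 46 and 12 counts in Mettl3KO and 0 in both WT libraries, and Klrg2, with 63 and 30 against 1 and 1. Their log2 fold changes were 7.90 and 5.44 (edgeR adjusted p = 0.184 and 0.125). Klrg2 does not lie within the 1000 kb flanks. DESeq2 called 12 lower and 2 higher, where its shares over all genes were 4.62% and 4.72%. Klrb1c, which encodes NK1.1, was at 199.1 and 192.9 CPM in Mettl3KO and 491.5 and 561.9 CPM in WT (log2 fold change -1.43, SE 0.11, edgeR adjusted p = 0.00253), and Klra9 at 224.8 and 219.6 CPM against 572.2 and 687.0 CPM (-1.50, SE 0.12, edgeR adjusted p = 0.00257). Klra7 and Klra1, both Ly49 receptor genes, had log2 fold changes of -1.69 and -0.84 (edgeR adjusted p = 0.0101 and 0.0124). The other called genes of the list, also of the Ly49 family, were Klra6 at -2.53, Klra5 at -2.26 and Klra3 at -1.17 (edgeR adjusted p = 0.0358, 0.0458 and 0.0138). Klra6 and Klra5 thus had fold changes close to that of Klrd1 (-2.35) and larger than that of Klri1 (-1.35). Klrb1b, an NKR-P1 family gene, had 1 and 0 counts in Mettl3KO and 142 and 128 counts in WT. Its summed level was 257-fold lower in Mettl3KO (95% exact interval 45.7 to 10184, counting error only), further than any of the 8 receptor genes in the edgeR fit. It was not called by edgeR (log2 fold change -7.69, adjusted p = 0.0512) and was called by DESeq2 (adjusted p = 0.00014). Without Mettl3KO replicates 1 and 2 and WT replicates 1 and 2 in turn, the number called lower in this list was 2, 3, 4 and 2. Klrb1c and Klra9 were called each time, Klra7 only without Mettl3KO replicate 2, Klra1 and Klra5 only without WT replicate 1, and Klra3 and Klra6 in none of the 4. Klra5 and Klra6 were also not called by limma voom, nor Klra5 with no filter, and over all alternatives their adjusted p reached 0.203 and 0.184. The difference between the 2 groups of receptor genes was not tested.

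**Figure D4:**
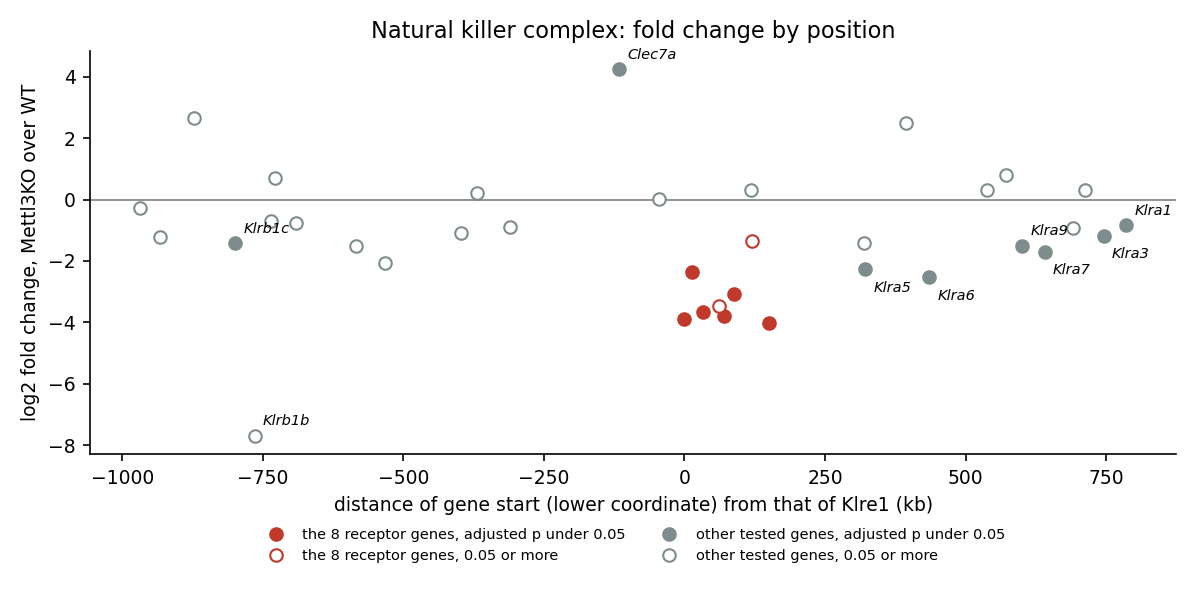
Log2 fold change, Mettl3KO over WT, of tested genes with counts in both genotypes, by distance from the start of Klre1 in kb; red marks the 8 receptor genes and filled symbols an adjusted p under 0.05. The 8 genes form a run within 162.6 kb with fold changes from -4.03 to -1.35, Klra6 and Klra5 to its right lie at -2.53 and -2.26, Klra9 and Klrb1c further out at -1.50 and -1.43, Klrb1b, which was not called, at -7.69, and Clec7a at 4.25.

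Among genes that act with these receptors, 1 adaptor or signalling gene and 0 ligand genes were called by edgeR. Of 14 tested adaptor and signalling genes, 1 was called lower and 0 higher, with a median log2 fold change of -0.31, while 1.51% of all tested genes were called lower. At an unadjusted p under 0.05, 4 of the 14 were lower (9.69% over all genes), and DESeq2 called 4 lower (4.62%) and 0 higher. Hcst, which encodes the NKG2D adaptor DAP10, was at 24.2 and 24.9 CPM in Mettl3KO and 50.1 and 36.1 CPM in WT. The groups did not overlap, but its log2 fold change of -0.82 (SE 0.25) did not pass (edgeR adjusted p = 0.126). Tyrobp, which encodes DAP12, had 2 and 6 counts in Mettl3KO and 2 and 14 in WT and was too low to test, so the adaptor of the CD94-NKG2C receptor was hardly detectable in either genotype. Ptpn6, which encodes the phosphatase SHP-1 recruited by inhibitory receptors, was lower at 749.2 and 775.9 CPM in Mettl3KO against 998.5 and 1143 CPM in WT (log2 fold change -0.49, SE 0.09, edgeR adjusted p = 0.0463), and did not pass without Mettl3KO replicate 1, Mettl3KO replicate 2 or WT replicate 2 (adjusted p up to 0.243). The Ptpn6 call also ended with DESeq2 size factors in edgeR (adjusted p = 0.0503) and with no filter on low counts (0.0628), which left 0 of the list called. The kinase gene Zap70 and the exchange factor gene Vav1 had log2 fold changes of -0.40 and -0.42 and did not pass (edgeR adjusted p = 0.0658 and 0.0816).

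Of the ligand genes, 5 were tested and 0 were called in either direction by edgeR, where 1, H2-T23, had an unadjusted p under 0.05. DESeq2 called 1 lower (4.62% over all genes) and limma voom 0 (1.25%). H2-T23, which encodes Qa-1b, was at 313.0 and 286.3 CPM in Mettl3KO and 386.4 and 396.8 CPM in WT, and was not called (log2 fold change -0.39, SE 0.10, edgeR adjusted p = 0.101). Ulbp1, which encodes the NKG2D ligand MULT1, was at 27.6 and 19.2 CPM in Mettl3KO and 15.3 and 17.9 CPM in WT (log2 fold change 0.50, edgeR adjusted p = 0.397). Raet1d, Raet1e and H60b, genes of other NKG2D ligands, stood at no more than 5.05 CPM in any library, and H60c had no counts.

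Among 12 transcription factor and interleukin-15 receptor genes linked to natural killer receptor expression, 1 was called lower and 0 higher by edgeR. The median log2 fold change was -0.42, and over all genes 1.51% were called lower and 1.09% higher. At an unadjusted p under 0.05, 5 were lower and 2 higher (9.69% and 10.5% over all genes). DESeq2 called 4 lower and 0 higher (4.62% and 4.72%). Tbx21, which encodes T-bet, was at 337.8 and 314.6 CPM in Mettl3KO and 552.5 and 731.7 CPM in WT (log2 fold change -0.98, SE 0.14, edgeR adjusted p = 0.0202), a call lost without Mettl3KO replicate 1, Mettl3KO replicate 2 or WT replicate 2 (adjusted p up to 0.147). Runx3, Prdm1 and Ikzf3 were also lower in both Mettl3KO libraries than in WT, with log2 fold changes of -0.81, -1.39 and -0.45, and did not pass (edgeR adjusted p = 0.0607, 0.0793 and 0.0917). Eomes, the factor related to T-bet that marks natural killer cells, had 12 and 22 counts in Mettl3KO and 0 counts in both WT libraries.

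NKT1 genes that are not lectin receptors were lower in the same libraries: 10 of 12 tested were called lower and 0 higher by edgeR (11 and 0 at an unadjusted p under 0.05, and 10 and 0 with DESeq2), with a median of -1.80. Over all genes, edgeR called 1.51% lower and 1.09% higher (9.69% and 10.5% at an unadjusted p under 0.05), and DESeq2 4.62% and 4.72%. The list was chosen with earlier results of these data known, so its share of calls is a description. Tbx21, which was called, and Il2rb are also in the list of transcription factor and interleukin-15 receptor genes. Ly6c2, a surface antigen, was at 18.9 and 32.1 CPM in Mettl3KO and 546.6 and 573.2 CPM in WT (log2 fold change -4.46, SE 0.20, edgeR adjusted p = 0.000799). Nkg7, a granule protein gene, Fasl, which encodes Fas ligand, and Cxcr3, a chemokine receptor gene, had log2 fold changes of -1.69, -1.91 and -0.84 (edgeR adjusted p = 0.00214, 0.0124 and 0.0173). Leaving out Mettl3KO replicates 1 and 2 and WT replicates 1 and 2 in turn gave 2, 2, 9 and 3 genes called lower, with Ly6c2 and Nkg7 among the called genes each time. Fasl was not called without either Mettl3KO library, nor was Cxcr3, which was also lost without WT replicate 2. Of 10 tested iNKT identity genes 1 was called lower, Trac at a log2 fold change of -0.58 (edgeR adjusted p = 0.0124), and 0 higher by edgeR, with a median of -0.13. At an unadjusted p under 0.05 these were 3 and 2, and DESeq2 called 3 and 2. Zbtb16, which encodes the iNKT factor PLZF, was at 352.6 and 350.4 CPM in Mettl3KO and 255.5 and 192.3 CPM in WT (log2 fold change 0.65, edgeR adjusted p = 0.0658). Cd4 was at 670.7 and 582.7 CPM in Mettl3KO and 437.98 and 453.5 CPM in WT (log2 fold change 0.49, edgeR adjusted p = 0.0561). For both genes the Mettl3KO libraries lay above WT, and DESeq2 called both higher (adjusted p = 0.000904 and 0.000685). Cd3g, a CD3 chain gene, had a log2 fold change of -0.55 and did not pass (edgeR adjusted p = 0.0866). The Trac call was lost without either Mettl3KO library (adjusted p up to 0.121).

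Markers of other cells were read in the same libraries. Of 10 tested natural killer cell markers 4 were called lower and 0 higher by edgeR (7 and 1 at an unadjusted p under 0.05, and 5 and 0 with DESeq2). Shares over all genes were 1.51% lower and 1.09% higher by edgeR, 9.69% and 10.5% unadjusted, and 4.62% and 4.72% with DESeq2. The summed level of the list was 132.3 and 138.4 CPM in Mettl3KO and 363.5 and 480.4 CPM in WT. Gzma and Prf1, cytotoxic granule genes that NKT1 cells share, had log2 fold changes of -2.99 and -1.89 (edgeR adjusted p = 0.0311 and 0.0273). Fcer1g, a receptor γ chain gene, had -1.71 (edgeR adjusted p = 0.0311). The other called marker was Klra7 (-1.69), already counted among the called lectin genes above. Klra4 and Klra8 also stand in that lectin list, Eomes among the transcription factors and Tyrobp among the adaptors, so the lists are not separate. The calls numbered 0, 1, 2 and 0 without Mettl3KO replicates 1 and 2 and WT replicates 1 and 2 in turn. Gzma was not called by limma voom. Of the 10 tested, 7 were lower in both Mettl3KO libraries than in both WT libraries, as were 24.9% of all tested genes. In the other direction 2, Eomes and Klra8, were higher, and that share over all genes was not counted. Besides the called genes, the lower ones were Itga2 (3.85 and 3.13 CPM in Mettl3KO, 8.39 and 10.2 CPM in WT), Cd244a (7.77 and 7.26 CPM against 12.7 and 18.7 CPM) and Irf8 (26.0 and 30.9 CPM against 56.8 and 56.2 CPM), which were not called (edgeR adjusted p = 0.142, 0.173 and 0.0512). Ncr1 had 26 and 0 counts in Mettl3KO and 22 and 61 in WT, which overlap, and Cma1 had 0 in all 4 libraries. The part of natural killer cells in the receptor results was not tested. Of 8 tested myeloid markers 5 were called higher, Lyz2, Csf1r, Cd209a, Mgl2 and Clec10a, with a summed level of 426.7 and 489.0 CPM in Mettl3KO and 39.2 and 61.0 CPM in WT. DESeq2 called 3 (4.72% over all genes were higher) and limma voom 2 (0.740%), and neither called Csf1r (adjusted p = 0.130 and 0.193) or Cd209a (0.238 and 0.103). With no filter 4 were called. Without Mettl3KO replicates 1 and 2 and WT replicates 1 and 2 in turn, 3, 2, 2 and 2 were called. The part of myeloid cells in the receptor results was not tested. Of 5 γδ T, 2 CD8 T and 5 B cell markers tested, edgeR called 0. At an unadjusted p under 0.05, 1 γδ T and 1 B cell marker were lower and 1 γδ T, 2 CD8 T and 1 B cell marker higher. DESeq2 called both CD8 T markers, Cd8a and Cd8b1, higher, at 165.4 and 182.2 CPM and at 143.3 and 130.9 CPM in Mettl3KO, against 73.9 and 115.0 CPM and 76.7 and 104.4 CPM in WT.

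The targeted gene does not check the labels here. Mettl3 was at 78.1 and 91.4 CPM in Mettl3KO and 92.2 and 123.6 CPM in WT (log2 fold change -0.35, SE 0.19, edgeR adjusted p = 0.357), and a whole-gene count includes exons outside a floxed segment, which the labels do not name. Counts totalled 25402792 and 24374587 in Mettl3KO and 28316016 and 25931610 in WT, so that 3 counts correspond to 0.107 to 0.120 CPM.

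The genes most like the receptor genes were sought over the 4 libraries, among the 8529 other tested genes that averaged 10 CPM or more, by the root mean square (RMS) difference between their centred log2 CPM and the mean profile of the 8 genes. Nearest was the chemokine gene Ccl5 (RMS 0.139), at 1.63 and 1.69 CPM in Mettl3KO and 14.8 and 26.3 CPM in WT. Fgl2, a fibrinogen-related gene, followed (RMS 0.151), at 85.0 and 101.4 CPM in Mettl3KO and 912.4 and 1525 CPM in WT. Next came Pvrig, an inhibitory receptor gene (RMS 0.219), 5830411N06Rik (0.293), Fgd5 (0.304) and Gzma (0.320). Among the receptor genes themselves, Klrc2, Klrc1 and Klre1 lay nearest to the mean profile (RMS 0.187, 0.212 and 0.226), and Klrc3 and Klri1 furthest (1.21 and 1.60). Genes were picked by this likeness, and their levels are a description.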

How the data were processed

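The authors deposited unnormalised whole-number counts of reads over Ensembl genes, 1 column per library. DESeq2 1.18.1, HTSeq 0.6.1, STAR 2.6.0a, FastQC 0.11.5 and the build mm10 are named in the submitters' processing notes. Which annotation, strand setting and filters they used is not given in the sources used here. Without strand, reads in overlapping genes cannot be told apart by strand.

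IDs were matched to the GENCODE annotation of GRCm38, and 95 had no symbol. Genes were kept by edgeR's filterByExpr (minimum count 10), libraries scaled by TMM, and genotypes compared in R 4.3.3 with edgeR 4.0.16 (glmQLFit, glmQLFTest, two-sided, 2 residual degrees of freedom). DESeq2 1.42.0 and limma 3.58.1 voom were alternatives, as were other scalings, filters, the replicate number as a block, and each library left out, where a lone library is assumed to vary like the others. SE is from the same fit. Libraries of a genotype differed beyond counting noise (chi-square per degree of freedom 27.0 in Mettl3KO and 42.5 in WT) and were kept as separate replicates. The procedure was checked on simulated counts with a single spread for all genes, which gives no error rate for the real libraries. Sequences came from GENCODE transcripts and RefSeq promoter tables and were aligned with Biopython 1.88. An inhibitory motif was searched for in the translated codons by its usual pattern.

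The members and gene lists were chosen with earlier results of these data known. Named genes are the 8 members, all genes of lists of up to 8, the 4 of smallest p in longer lists, genes between members, the 6 most alike genes and Mettl3. Tyrobp, Eomes, Ncr1, Cma1, Itga2, Cd244a, Irf8, Klra8, Raet1d, H60c, Clec7a, Klra3, Klra5, Klra6, Klra17, Klrb1b and Klrg2 were named after their values were seen. RNA sequencing depth is the total count per library.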

Additional observations from a re-analysis of the deposited data

How the results depend on the processing

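The count of 6 receptor genes called lower held under other scalings, no filter, DESeq2, limma voom, at least 5 CPM in 2 libraries (which removed Klrc3 and Klri1 from testing), and with each library left out. With the replicate block it was 5: Klrk1 had a log2 fold change of -3.67 and an adjusted p of 0.0510. The replicate numbers share no origin in the labels, and same-numbered libraries did not deviate together (r = -0.0125 across genes), so the paired fit is an alternative only. It called 2 of 12 NKT1 genes, 2 of 18 other lectin genes and 0 of 10 natural killer cell markers lower, and 1 of 8 myeloid markers higher. Of 28 called genes named outside the 8 it ended the calls of 21, Ptpn6 (adjusted p = 0.136), Tbx21 (0.11) and Trac (0.0971) among them. Over all alternatives, summed reads left aside, the log2 fold change ran from -2.54 to -2.15 for Klrd1, -3.26 to -2.87 for Klrc1 and -4.01 to -3.53 for Klrc2. It ran from -4.17 to -3.52 for Klre1, -4.45 to -3.61 for Klri2 and -4.15 to -3.31 for Klrk1. The scarce genes were unstable, from -9.45 to -2.52 for Klrc3 and -8.94 to -0.34 for Klri1, and neither passed as a single gene. The sums of Klrc3 with Klrc1 and Klrc2, and of Klri1 with Klri2, passed. Most reads in those sums came from the other genes, so the sums do not show a change of Klrc3 or Klri1.

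In all, 368 genes were called. The count was 727 at 5 CPM or more in 2 libraries, where fewer genes are tested, 1379 with DESeq2, and 33 with the replicate block. It ran from 41 to 172 with each library left out. The cause of the other shifts was not tested. With each library left out, the difference in Klrc1 share ran from 11.2 to 12.8 percentage points, that in the Klrk1 to Klrd1 ratio from -1.21 to -0.75, and that in Klri1 share from -2.54 to 18.3.

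Of 65 other named genes followed over the alternatives, Klra17 and Klrg2 not among them, the sign turned for 6, none of them called. The log2 fold change ran from -3.22 to 7.58 for Raet1d (-3.22 without Mettl3KO replicate 1, -0.66 without WT replicate 2), -1.79 to 0.53 for Raet1e (0.53 without WT replicate 2), -0.55 to 1.33 for H60b, -3.46 to 8.91 for Itgax and -0.41 to 0.0955 for C1qa (each reversed without Mettl3KO replicate 1), and -0.11 to 0.0926 for Tcrg-C4 (0.00097 without Mettl3KO replicate 2, 0.0926 without WT replicate 2, and 0.0475 with total-count scaling). Klrc3 and Klri1 had 0 to 100 counts a library, and depth limits the precision of their values; shared reads and the spread between libraries were not weighed against it.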

Other observations

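The letters GGACT, a common core of N6-methyladenosine sites, were counted in the longest coding transcript of each receptor gene. They occurred 0 times in Klrd1 and Klri1, 1 time in Klre1, 2 times each in Klrc1, Klrc2 and Klrc3, 4 times in Klrk1 and 5 times in Klri2. Per kilobase this is 0 to 2.80, with the median of 11701 tested coding genes at 1.05. Klrd1 and Klri1, the members without these letters, had the fold changes nearest 0 among the 8 in the edgeR fit (-2.35 and -1.35). Klrc2, Klre1 and Klrc1, also below the median at 0.711, 0.773 and 1.01 per kilobase, had -3.78, -3.87 and -3.07. Klrk1, Klri2 and Klrc3, above it at 1.25, 1.28 and 2.80, had -3.66, -4.03 and -3.48. The transcripts of Klrd1 and Klri1 are short, at 919 and 838 bases, and few copies would fit the median density. Klrc3, the shortest at 715 bases, had the most per kilobase. Klri1 did not pass the test, and its place is not stable: its log2 fold change was -3.64 with limma voom, further from 0 than that of Klrc1 (-3.05), and -8.94 without Mettl3KO replicate 2. The letters were counted after the fold changes were known, methylation was not measured, and no relation was tested.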
